A study of Mus musculus with 25 samples.

Results

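Genes of the oxidative phosphorylation system and of the mitochondrial ribosome accounted for 127 of the 13527 accessible regions counted in the ATAC-seq table. A region was a member when the protein-coding gene start nearest to its midpoint (mouse genome GRCm39, GENCODE annotation) belonged to a gene whose symbol starts with Nduf, Uqcr, Atp5, Mrpl, Mrps or one of the Cox prefixes for structural subunits of complex IV, or to Sdha, Sdhb, Sdhc, Sdhd or Cycs. No measured value enters this rule, but it was chosen with earlier results of these data known. The nearest start does not show which gene a region acts on. The annotation held 176 such genes, of which 105 had at least 1 region and 12 had more than 1. Sdha, Sdhc and Sdhd were among the 71 genes without a region, although for 30 of the 71 a start lay within 1000 bp of a region that took the name of another gene.

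ATAC-seq measures open chromatin as the number of transposase insertions that are read from a stretch of DNA. Here it was run on CD8+ T cells pooled from spleen and lymph nodes of C57BL/6 females and sorted with a tetramer of the mouse class I molecule Kb that carries an OVA peptide, so that the cells recognize an antigen which graft and fetus have in common (fetus/graft-specific cells, TFGS). The 25 libraries form 7 groups. Naive females had received no treatment (3 libraries), and Sensitized females had rejected an allogeneic skin graft from the paternal 2W-OVA.BALB/c strain (4 libraries). N+P females had a semi-allogeneic pregnancy by such a male without a graft, and their post-partum cells were divided into C1 (PD1-, 3 libraries) and C5 (PD1+CD73+, 3 libraries). S+P females had the graft first and the pregnancy afterwards, and their cells were divided into C4 (PD1-), C5 (PD1+CD73+) and C7 (PD1+CD73-), with 4 libraries each. The labels name no PD1 or CD73 gate for Naive and Sensitized cells and do not say whether each library came from a separate animal, so the p-values measure the spread between these libraries, which may in part be technical. The paper describes cell suspensions made from individual mice, without stating that every ATAC-seq library stands for a separate mouse.

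Total counts per library ranged from 2430890 to 25419715, and the shallowest library, S+P C4 replicate 1, had the weakest precision. Of 8 genes that mark CD8 T cells, 7 had regions in the table, with 0.0947% to 0.156% of each library's counts, while none of 6 B cell marker genes had a region. Among the lists for other cells, only Cd68 of 5 myeloid genes, Klrb1c and Klrk1 of 3 NK genes, Cd4 of 3 CD4 T cell genes and Gcm1 of 4 trophoblast genes had regions. The regions of the NK genes held 0.0563% to 0.0768% of the counts. The Cd68 region held 0.00131% to 0.00158% of the counts in Naive libraries and 0.00309% to 0.00548% in S+P C7 libraries. The Gcm1 region went the other way, with 0.00794% to 0.00884% in Naive and 0.00331% to 0.0052% in S+P C7 libraries. So did the Cd4 regions, with 0.00551% to 0.00623% and 0.00341% to 0.00532%. The part of these regions in the results was not tested. Within the Sensitized group, replicates 1 and 2 differed from replicates 3 and 4 at several regions, and counts of members past the adjusted p and called in comparisons with that group are also given without replicates 3 and 4. For fits that left out a single library, the share of all regions is not given. A shift of the members cannot be told there from a shift over the whole table. In bulk libraries such as these, a change in the share of cells with an open region and a change in the signal per cell cannot be told apart.

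Oxidative phosphorylation passes electrons from NADH and succinate along complexes I to IV of the inner mitochondrial membrane, with cytochrome c as the soluble carrier between complexes III and IV, and complex V (ATP synthase) uses the resulting proton gradient to make ATP. Most subunits are encoded in the nucleus, whereas a few core subunits are encoded in mitochondrial DNA and are translated by the mitochondrial ribosome, whose proteins are also nuclear gene products. In T cells, resting and memory cells rely largely on this system, activation adds strong glycolysis, and exhausted cells are known for impaired mitochondrial function. The housekeeping promoters of these genes often hold sites for NRF1, GABP (an ETS factor), YY1, SP/KLF factors and CREB.

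By role, 31 member regions belonged to complex I subunits (Nduf genes), 8 to complex I assembly factors (Ndufaf), 4 to complex II (all Sdhb), 4 to complex III (Uqcr), 1 to cytochrome c (Cycs), 13 to complex IV (Cox), 14 to complex V (Atp5), 33 to the large subunit of the mitochondrial ribosome (Mrpl) and 19 to its small subunit (Mrps). In position they fell into 2 kinds. Of the 127, 99 (of 98 genes) lay within 1000 bp of a transcript start of a protein-coding gene, at a median of 140 bp from the gene start itself, and are called start regions here. The other 28 lay away from starts, at 2105 to 322251 bp (median 21087 bp) from the gene that named them: 16 lay between genes, 8 inside genes that are no members and 4 inside member genes. Median GC content was 57.2% in the start regions and 48.3% in those away from starts, against 59.3% and 48.1% for all regions of each kind. A start region was shared with the start of another gene in 27 of 99 members (27.3%), against 12.9% of all 7697 start regions.

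Promoter sequence was read for the member genes with a start region from RefSeq windows of 300 bases (250 before to 50 after the start, GRCm38.p6), which matched 85 of the 98 genes. Each motif was searched as an exact string on both strands. A gene was counted when any of its windows held the string. The NRF1 string GCATGCGC was present in 15 of 85 genes (17.6%), against 6.63% of other genes with a start region and 3.05% of all 27025 genes. The YY1 string AAGATGGCG was found in 11 (12.9%), against 3.75% and 1.64%. The ETS string CCGGAAGT was found in 7 (8.24%), against 10.6% and 4.31%, and the SP/KLF string GGGGCGGGG in 16 (18.8%), against 26.5% and 12.9%. TGACGTCA, the cyclic AMP response element (CRE), was found in 5 (5.88%, against 4.36% and 2.03%), the NFY string AGCCAAT in 11 (12.9%, against 15.1% and 8.99%) and the ERR string TCAAGGTCA in 1 (1.18%, against 0.31% and 0.47%). At least 1 of the 7 strings was present in 51 of 85 member genes, against 28.1% of all genes. This share was not taken for the other genes with a start region. Those genes lay above the members for the ETS, SP/KLF and NFY strings and below them for the others. These matches describe the letters in the window and are not evidence of binding.

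The 3 promoter stretches given here illustrate the strings on GRCm39 inside start regions with data described further on: Cycs (cytochrome c), Mrps28 (small ribosomal subunit, the start region of its class with the most counts) and Sdhb (the iron-sulfur subunit of succinate dehydrogenase). Each covers the 200 bases before the gene start, 5′ to 3′ on the gene's strand, and capitals mark matches. For Cycs (chr6:50543558-50543757, minus strand) these are CRE, NRF1 and NFY, for Mrps28 (chr3:8988979-8989178, minus strand) NRF1, and for Sdhb (chr4:140688302-140688501, plus strand) the SP/KLF string read from the other strand.
Cycs: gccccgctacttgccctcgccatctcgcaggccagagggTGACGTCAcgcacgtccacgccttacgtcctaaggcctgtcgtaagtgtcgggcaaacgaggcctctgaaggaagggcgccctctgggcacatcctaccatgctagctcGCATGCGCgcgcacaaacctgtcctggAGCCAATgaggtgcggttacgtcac
Mrps28: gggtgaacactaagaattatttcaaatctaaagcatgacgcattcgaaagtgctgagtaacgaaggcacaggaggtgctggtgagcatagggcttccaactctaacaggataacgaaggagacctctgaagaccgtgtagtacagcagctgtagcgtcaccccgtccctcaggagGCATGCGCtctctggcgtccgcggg
Sdhb: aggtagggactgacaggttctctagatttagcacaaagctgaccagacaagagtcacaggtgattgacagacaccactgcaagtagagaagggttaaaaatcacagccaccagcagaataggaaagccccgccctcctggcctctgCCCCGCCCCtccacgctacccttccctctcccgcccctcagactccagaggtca

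For the regions away from starts, 300 bases around the midpoint were searched for strings of factors that act at T cell enhancers, which were chosen after the data were seen. The AP-1 string TGANTCA was present in 6 of 28 members (21.4%), against 15.9% of the other regions away from starts and 9.2% of all regions. The RUNX string TGTGGTT was present in 9 (32.1%, against 20.1% and 10.8%), the TCF/LEF string CTTTGAT in 1 (3.57%, against 7.24% and 4.07%) and the NFAT string TGGAAAA in none (against 7.33% and 4.87%). The centres of 6 of the regions whose counts differed most between the groups are given on the plus strand of GRCm39, with matches on either strand in capitals. They are 2 regions named for Cox7c at chr13:85872622-85872921 (no match) and chr13:86171150-86171449 (RUNX and 2 TCF/LEF matches), 1 in an intron of Ndufs4 at chr13:114441177-114441476 (RUNX and AP-1), 1 named for Mrpl39 at chr16:84274645-84274944 (RUNX), 1 named for Atp5po at chr16:91760077-91760376 (no match) and 1 in an intron of Mrpl38 at chr11:116027188-116027487 (RUNX).
Cox7c, far: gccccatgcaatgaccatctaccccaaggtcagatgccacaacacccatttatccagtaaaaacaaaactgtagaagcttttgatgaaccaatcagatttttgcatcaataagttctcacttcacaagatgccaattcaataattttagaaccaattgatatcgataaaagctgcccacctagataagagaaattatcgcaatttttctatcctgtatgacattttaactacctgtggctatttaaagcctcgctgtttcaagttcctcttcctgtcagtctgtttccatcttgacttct
Cox7c, nearer: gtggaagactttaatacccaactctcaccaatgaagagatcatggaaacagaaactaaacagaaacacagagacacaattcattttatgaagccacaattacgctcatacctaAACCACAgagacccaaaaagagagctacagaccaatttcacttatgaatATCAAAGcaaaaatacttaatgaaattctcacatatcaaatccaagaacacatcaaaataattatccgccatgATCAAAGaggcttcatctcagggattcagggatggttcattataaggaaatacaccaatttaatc
Ndufs4: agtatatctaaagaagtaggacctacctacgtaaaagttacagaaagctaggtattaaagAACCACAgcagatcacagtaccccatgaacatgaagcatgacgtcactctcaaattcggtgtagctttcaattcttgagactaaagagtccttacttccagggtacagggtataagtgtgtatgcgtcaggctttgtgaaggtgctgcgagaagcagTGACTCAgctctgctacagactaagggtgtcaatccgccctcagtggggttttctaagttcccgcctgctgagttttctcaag
Mrpl39: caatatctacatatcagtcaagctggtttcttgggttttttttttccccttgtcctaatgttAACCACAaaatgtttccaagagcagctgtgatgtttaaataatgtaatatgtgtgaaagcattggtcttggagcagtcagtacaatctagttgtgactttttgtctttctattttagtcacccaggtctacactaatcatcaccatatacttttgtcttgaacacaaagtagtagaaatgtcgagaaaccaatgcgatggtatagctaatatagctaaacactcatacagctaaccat
Atp5po: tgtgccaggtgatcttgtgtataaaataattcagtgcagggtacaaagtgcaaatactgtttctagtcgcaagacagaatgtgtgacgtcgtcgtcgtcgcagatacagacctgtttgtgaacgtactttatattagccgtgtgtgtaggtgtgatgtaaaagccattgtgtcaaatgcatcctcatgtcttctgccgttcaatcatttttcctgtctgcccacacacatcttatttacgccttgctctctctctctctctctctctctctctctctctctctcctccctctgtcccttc
Mrpl38: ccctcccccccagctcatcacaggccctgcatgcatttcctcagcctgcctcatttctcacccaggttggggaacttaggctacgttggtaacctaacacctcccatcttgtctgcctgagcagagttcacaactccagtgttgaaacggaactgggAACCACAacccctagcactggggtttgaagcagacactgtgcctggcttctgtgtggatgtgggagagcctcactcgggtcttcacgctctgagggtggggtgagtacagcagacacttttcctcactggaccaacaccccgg

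Start regions of the members varied little between groups, whereas regions away from starts varied widely. Highest and lowest of the 7 group means lay within 1.5-fold of each other in 79 of 99 start regions (79.8%), against 74.3% of the other start regions in the table. The widest range of any member start region was 2.14-fold, at Atp5mj, a small subunit of ATP synthase. Of the 28 regions away from starts, 8 (28.6%) ranged over more than 4-fold, against 23.7% of other such regions, and the widest was the Mrpl38 intron at 67.1-fold. The plot of the range against distance shows both kinds.

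**Figure D1:**
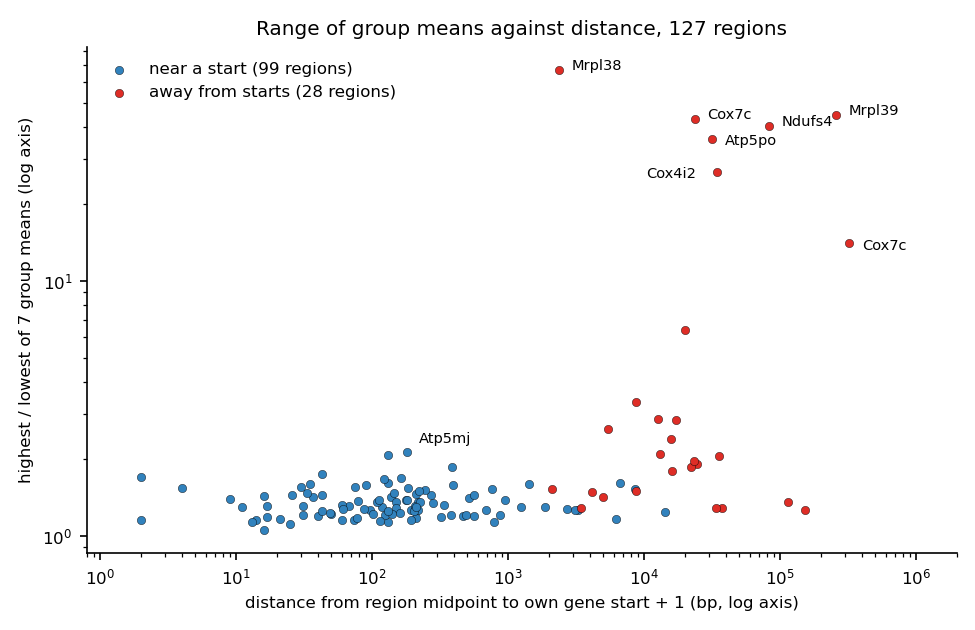
Ratio of the highest to the lowest of 7 group means (log axis) against the distance in bp from region midpoint to own gene start plus 1 (log axis); each point is 1 of 127 member regions, blue near starts and red away from them. All 99 start regions lie at or below 2.14-fold, and the 8 regions above 4-fold are all away from starts; the distance is to the start of the naming gene, so some start regions of other transcripts lie beyond 1000 bp.

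As a whole, the 99 start regions held 0.707% to 0.787% of the counts of every library, and 1.08% to 1.13% of the counts in all start regions. Means of this second share were 1.12% ± 0.01 (SD, n = 3) in Naive, 1.09% ± 0.0129 (SD, n = 4) in Sensitized and 1.1% ± 0.00957 (SD, n = 4) in S+P C7 libraries. By contrast, the 28 regions away from starts held 0.103% to 0.122% of the counts in the 9 Naive and N+P libraries and 0.129% to 0.183% in the 16 Sensitized and S+P libraries, so those 2 sets of libraries did not overlap. The other regions away from starts held 29.7% to 33.6% and 31.6% to 35.3% in the same 2 sets, which overlapped. A region enters the table through the groups in which it was found, and 10 of the 28 were in the list of 1 group only, so this separation is a description without a test. The share was 0.176% to 0.183% in S+P C7 and 0.157% to 0.181% in S+P C5 libraries, which overlapped. Of the start regions, 2 of 99 (2.02%) were called in at least 1 of 10 comparisons, against 4.98% of all start regions, where "called" means that the DESeq2 p adjusted over all regions was under 0.1 and the log2 fold difference exceeded 0.9 in size. Of the regions away from starts, 14 of 28 were called in at least 1 comparison, against 44.5% of all such regions. Without the fold threshold, 80 of 99 start regions (80.8%, against 77.0% of all start regions) and 27 of 28 others (96.4%, against 88.8%) passed the adjusted p in at least 1 comparison.

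**Figure D2:**
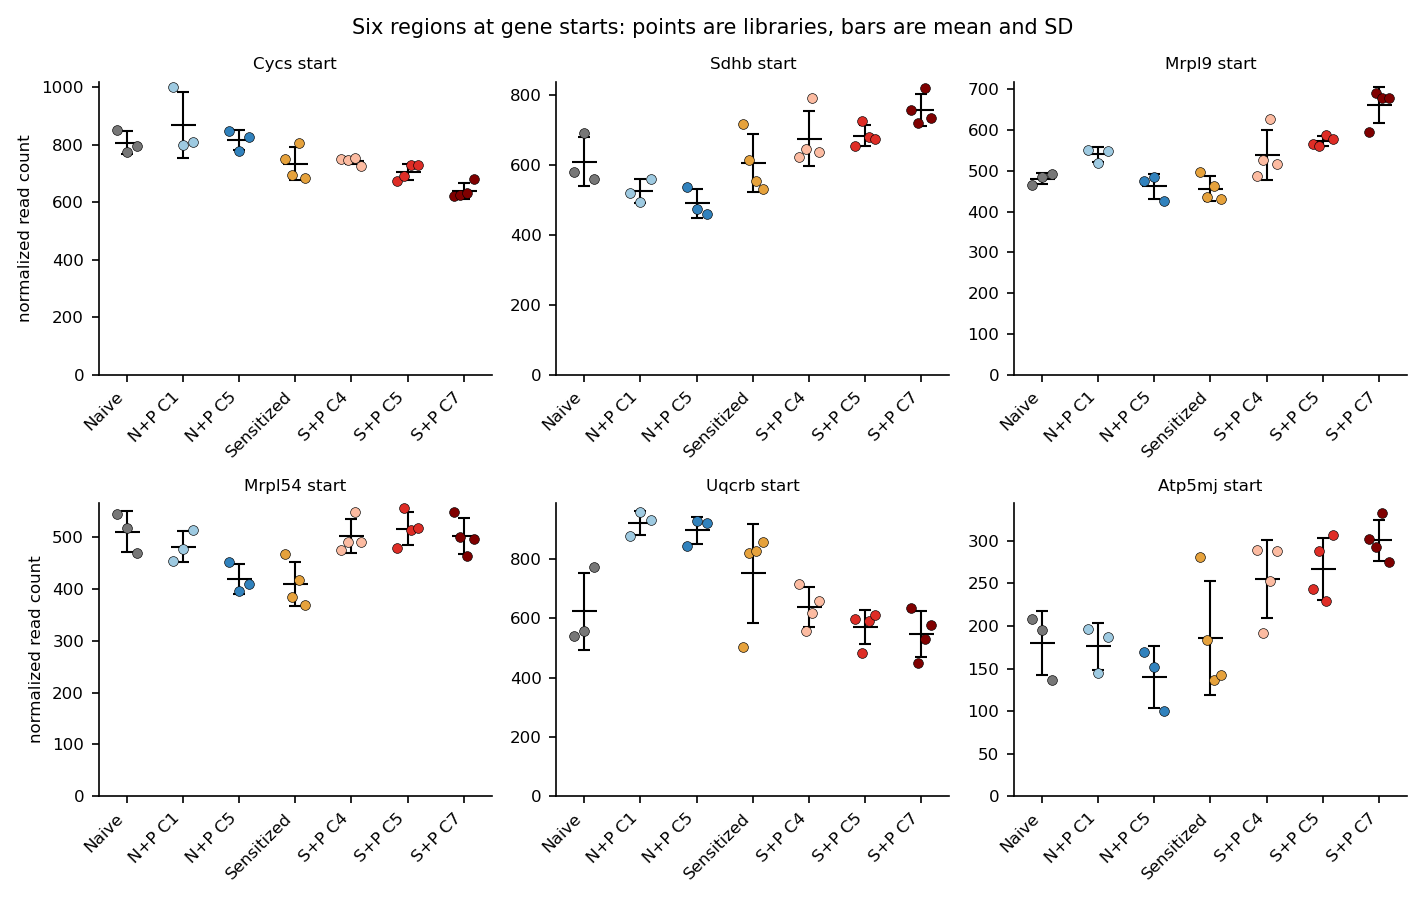
Normalized read counts (linear axis from 0) at 6 start regions in the 7 groups; points are libraries and bars are mean and SD. At Uqcrb the N+P libraries lie between 846 and 960, a range that 1 Sensitized library at 858 shares, and at Atp5mj the S+P C7 libraries lie between 275 and 333.

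At the start of the electron transport chain, the start regions of complex I genes shifted by small amounts. Ndufb11 encodes an accessory subunit of the complex I membrane arm, and its start region (chrX:20483233-20484552) is shared with Rbm10. It held 800, 742 and 758 normalized counts in Naive, 791, 783 and 895 in N+P C1 and 823, 873 and 816 in N+P C5 libraries. Values were 576, 672, 678 and 677 in Sensitized, 640, 648, 658 and 653 in S+P C4 libraries, 591, 620, 574 and 534 in S+P C5 and 639, 620, 610 and 584 in S+P C7. All 9 Naive and N+P libraries lay above all 16 Sensitized and S+P libraries.

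Ndufa11, another membrane arm subunit with a shared start region (chr17:57023581-57025095, with Vmac), held 991, 957 and 928 in Naive and 828, 701, 844 and 854 in Sensitized libraries, which did not overlap. Ndufaf6 encodes an assembly factor of complex I. Its start region (chr4:11075755-11077490) held 958, 888 and 1050 in N+P C5 and 667, 549, 630 and 663 in S+P C5, again without overlap, and was lowest in S+P C7 at 556, 529, 449 and 539.

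Complex II was represented by Sdhb alone. Its start region (chr4:140688192-140689178) held 579, 689 and 558 in Naive, 519, 493 and 560 in N+P C1 and 537, 473 and 459 in N+P C5. Sensitized libraries held 716, 614, 553 and 531, S+P C4 623, 644, 791 and 637, S+P C5 652, 724, 679 and 674 and S+P C7 755, 718, 819 and 732. The N+P C5 values lay below all S+P values. The other 3 Sdhb regions lay in introns and an exon of the neighbouring gene Padi2, 8722 to 16072 bp from the Sdhb start.

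The Cycs start region (chr6:50542771-50544127) went in the other direction. It held 850, 773 and 796 in Naive, 1000, 798 and 808 in N+P C1 and 846, 776 and 826 in N+P C5, against 673, 690, 728 and 728 in S+P C5 and 621, 623, 633 and 679 in S+P C7. The Sensitized libraries (749, 693, 807 and 683) and S+P C4 libraries (749, 745, 753 and 726) had means between those of the Naive and S+P C5 groups, and 1 Sensitized library lay inside the Naive range. Uqcrb encodes a subunit of complex III and shares its start region (chr13:67052536-67054029) with Ramacl. Values there were 540, 559 and 773 in Naive, 880, 960 and 931 in N+P C1, 846, 928 and 921 in N+P C5 and 504, 822, 828 and 858 in Sensitized. They were 598, 484, 591 and 610 in S+P C5 and 634, 449, 530 and 577 in S+P C7, with 718, 558, 617 and 660 in S+P C4. N+P libraries lay above all Naive, Sensitized and S+P libraries except 1 Sensitized library at 858, inside the N+P C5 range, and the Sensitized group was divided, with replicate 1 at 504.

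Cox7c, a small subunit of complex IV, had the start region with the most counts in its class (chr13:86194109-86195497). It held 1090, 923 and 1320 in Naive, 1400, 1430 and 1630 in N+P C1, 1460, 1340 and 1450 in N+P C5 and 889, 1340, 1270 and 1320 in Sensitized. S+P C4 held 1120, 1150, 1030 and 1080, S+P C5 964, 980, 1030 and 1000 and S+P C7 1060, 948, 1330 and 981. The 6 N+P libraries all held 1340 or more, a level that only 1 of the other 19 libraries, Sensitized replicate 2, reached.

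Among complex V genes, Atp5mc1 encodes the membrane-embedded c subunit that forms the rotor ring. Its start region (chr11:95966265-95967069) held 900, 980 and 683 in Naive, 648, 558 and 620 in N+P C1, 682, 526 and 552 in N+P C5 and 998, 719, 705 and 624 in Sensitized. The later groups held 619, 841, 1100 and 799 (S+P C4), 809, 923, 942 and 741 (S+P C5) and 878, 923, 1000 and 902 (S+P C7). Naive libraries all lay above the 6 N+P libraries, although the lowest Naive value and the highest N+P C5 value differed by 1 count. The Atp5mj start region (chr12:111933043-111933619) held 208, 195 and 137 in Naive, 196, 145 and 187 in N+P C1, 170, 152 and 99.8 in N+P C5 and 281, 183, 137 and 142 in Sensitized. It held 289, 192, 253 and 288 in S+P C4 libraries, 244, 288, 230 and 307 in S+P C5 and 302, 293, 333 and 275 in S+P C7, so both PD1+ groups of S+P females lay above every Naive and N+P library.

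In the mitochondrial ribosome, Mrpl9 and Mrpl54 encode proteins of the large subunit. The Mrpl9 start region (chr3:94350294-94351432, shared with Oaz3) held 466, 484 and 492 in Naive, 475, 485 and 427 in N+P C5 and 497, 436, 463 and 431 in Sensitized libraries, and 567, 562, 588 and 578 in S+P C5 and 596, 691, 679 and 680 in S+P C7. Those 2 S+P groups lay above the other 3 given here. By their means, N+P C1 (540, SD 18.4) and S+P C4 (539, SD 61.5) lay in between. At Mrpl54 (chr10:81102198-81102902, shared with Apba3), Sensitized libraries held 467, 385, 417 and 370, below the 546, 519 and 469 of Naive and the 479, 557, 514 and 518 of S+P C5 libraries. N+P C5 libraries held 452, 396 and 409. The start region of Mrps28, a protein of the small subunit (chr3:8988113-8989409), held 1310, 1280 and 1370 in Naive, 1130, 1360, 1300 and 1380 in Sensitized and 1040, 999, 1120 and 1050 in S+P C7, which was the lowest group.

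Graft rejection alone (Sensitized against Naive) left the start regions nearly level and raised several regions away from starts. In all, 22 of 127 members passed the adjusted p, against 20.5% of all regions. No start region of a member rose and 7 fell, against 4.68% and 4.96% of all start regions, and they were 4 of complex I, 2 of the large and 1 of the small ribosomal subunit. Examples were Mrpl54 (log2 fold difference -0.31, SE 0.10, adjusted p = 0.0111), Ndufb11 (log2 fold difference -0.23, SE 0.07, adjusted p = 0.0127) and Ndufa11 (log2 fold difference -0.24, SE 0.09, adjusted p = 0.0359). None of the 99 was called, against 1.16% of all start regions, at 12 with an unadjusted p under 0.05, and edgeR called none either. All 3 lost the adjusted p without Naive replicate 1 (0.107 for Mrpl54, 0.105 for Ndufb11 and 0.174 for Ndufa11), and that of Ndufa11 also without Naive replicate 2 (0.118) or Sensitized replicate 2 (0.155). The median log2 fold difference of member start regions was -0.05, against -0.03 over all start regions and -0.03 over 65 start regions of cytosolic ribosomal protein genes. Without Sensitized replicates 3 and 4, 26 members passed (33.4% of all regions), among them 8 lower and no higher start regions, against 10.4% and 7.02% of all start regions. Then 11 members were called, against 15.2% of all regions, and without Naive replicate 1 there were 12 that passed.

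Of the 28 regions away from starts, 9 were called higher in Sensitized and none lower, against 15.4% and 3.04% of all such regions. The region in intron sequence of Mrpl38 (chr11:116027109-116027568, 2362 bp from the start of this large-subunit gene) held 5.51, 6.88 and 5.05 in Naive, 0, 7.85 and 11.3 in N+P C1 and 5.03, 11 and 2.4 in N+P C5. Sensitized libraries held 260, 155, 43.6 and 45.6, S+P C4 140, 278, 338 and 363, S+P C5 191, 282, 215 and 186 and S+P C7 316, 453, 351 and 441. It was almost closed in all 9 libraries of females without a graft, each under 10 raw counts and 1 at 0, and open in all 16 others. In the fit, Sensitized exceeded Naive (log2 fold difference 4.45, SE 0.60, adjusted p = 1.58e-11), with Sensitized replicates 1 and 2 above replicates 3 and 4.

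The region in an intron of Ndufs4, which encodes a complex I subunit at the NADH-oxidizing arm, lay 83467 bp from the gene start (chr13:114440803-114441851). It held 35.8, 27.5 and 18.9 in Naive, 23.2, 37 and 20.7 in N+P C1, 30.2, 13.7 and 33.7 in N+P C5 and 348, 333, 70.5 and 113 in Sensitized. In S+P C4 it held 208, 676, 767 and 782, in S+P C5 731, 1120, 629 and 527 and in S+P C7 868, 1240, 1140 and 963. No Naive or N+P library exceeded 37, and no library with a graft was below 70.5. The difference between Sensitized and Naive passed the threshold (log2 fold difference 2.99, SE 0.52, adjusted p = 2.63e-07).

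The 2 distal Cox7c regions lay between Rasa1 and Edil3. At the far one (chr13:85872286-85873259, 322251 bp from the Cox7c start) Naive libraries held 53.7, 23.6 and 58.7, N+P C1 libraries 38.7, 68.4 and 41.4, N+P C5 libraries 96.6, 75.4 and 95, and Sensitized libraries 222, 386, 244 and 258. S+P C4 held 187, 223, 248 and 191, S+P C5 654, 675, 605 and 608 and S+P C7 594, 478, 416 and 420, so S+P C5 was highest, at 605 or more, and no library of another group exceeded 594. At the nearer one (chr13:86171027-86171573, 23723 bp) the values were 5.51, 5.9 and 7.57 in Naive, 5.53, 13.5 and 9.42 in N+P C1, 19.1, 19.2 and 27.7 in N+P C5 and 77.3, 131, 21.2 and 56.4 in Sensitized. They were 23.8, 20.8, 24 and 19 in S+P C4 libraries, 280, 300, 292 and 221 in S+P C5 and 134, 126, 109 and 54.7 in S+P C7. Here S+P C5 lay above all other groups, and 5 libraries had fewer than 10 raw counts. Both regions were higher in Sensitized than Naive, the far one by 2.60 (SE 0.25, adjusted p = 3.04e-22) and the nearer one by 3.46 (SE 0.52, adjusted p = 1.86e-09) on the log2 scale.

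Further calls in the same direction were a region named for Cox4i2 in an intron of Bcl2l1 (chr2:152629465-152630062), a region named for Mrpl44 in an intron of Wdfy1 (chr1:79728836-79729458), 1 named for Ndufaf6 (chr4:11084676-11085162), 1 for Mrpl33 (chr5:31733700-31734624) and 1 for Mrpl39 (chr16:84274395-84275196). The Cox4i2 region held 44.1, 23.6 and 25.2 in Naive and 433, 425, 75.1 and 106 in Sensitized (log2 fold difference 3.08, SE 0.53, adjusted p = 2.65e-07), without overlap but with replicates 3 and 4 well below 1 and 2. The Mrpl44 region held 204, 203 and 235 in Naive and 478, 446, 349 and 364 in Sensitized (log2 fold difference 0.93, SE 0.18, adjusted p = 5.51e-06). Its difference lay close to the fold threshold and fell below it, to between 0.85 and 0.90, without Naive replicate 1 or 2 or Sensitized replicate 1 or 2. For Ndufaf6 the log2 fold difference was 1.09 (SE 0.24, adjusted p = 8.13e-05). The Mrpl33 and Mrpl39 groups overlapped, and their differences of 0.95 and 1.55 depended on single libraries: without Sensitized replicate 1 that of Mrpl33 was 0.64 (0.74 without Naive replicate 3), and that of Mrpl39 lost the adjusted p without Naive replicate 2 (0.286) or 3 (0.132) or Sensitized replicate 1 (0.11) or 2 (0.326), and in edgeR (0.149). With normalization offsets fitted by loess to the mean count of a region, Mrpl39 turned to -1.263 (adjusted p = 0.0735), and the nearer Cox7c region (0.311, adjusted p = 0.705) and the Ndufaf6 region (0.401, adjusted p = 0.281) no longer passed. The Mrpl38 and Cox4i2 differences were then 1.904 and 1.682, and Atp5po was called lower (-1.63, adjusted p = 0.0399). With these offsets 6 members were called higher and 2 lower, against 11.2% and 5.64% of all regions away from starts.

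**Figure D3:**
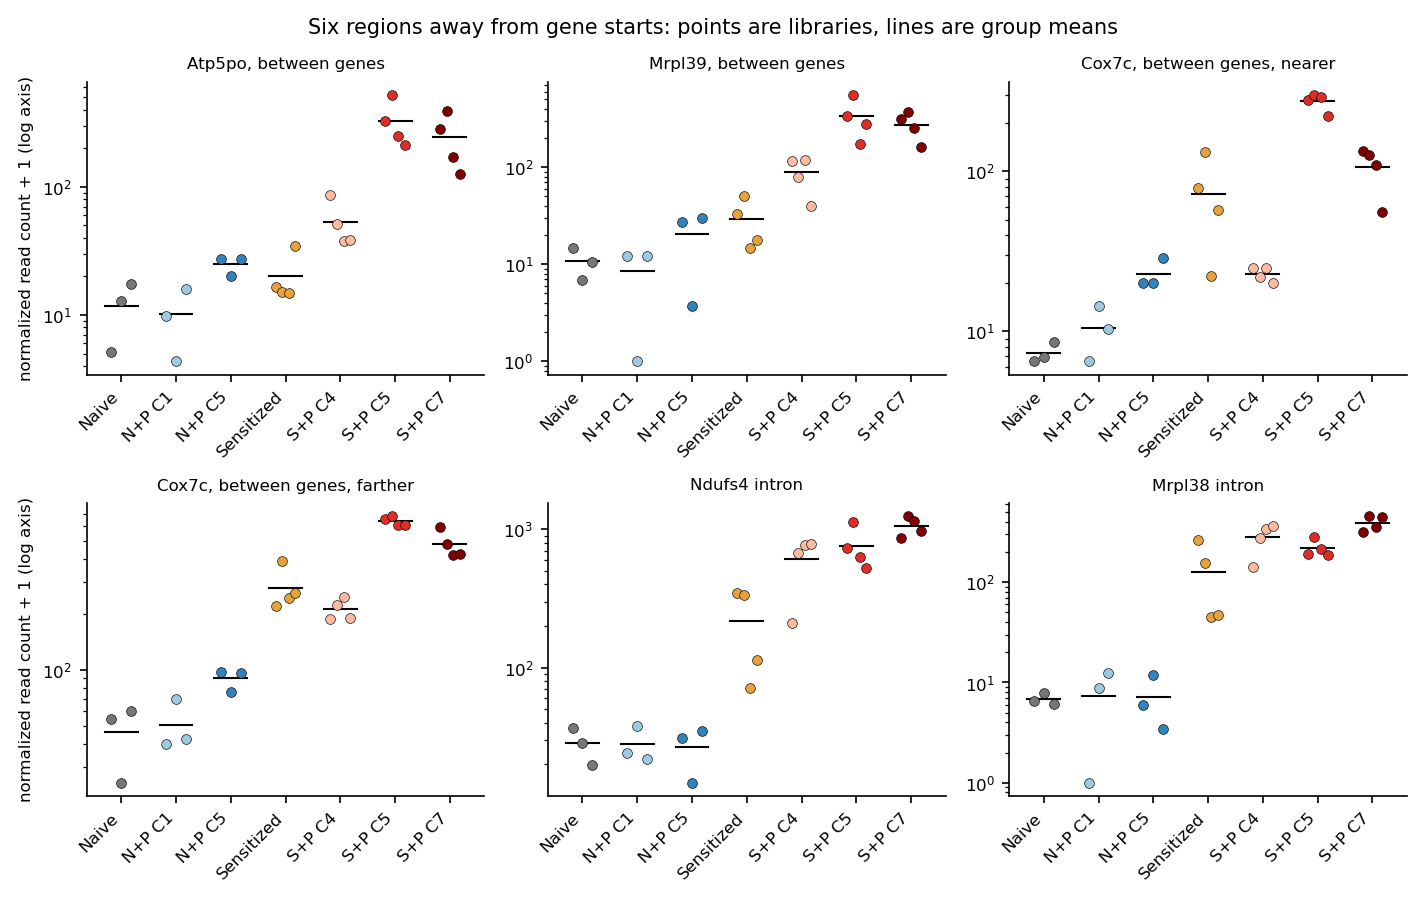
Normalized read counts plus 1 (log axis) at 6 regions away from starts in the 7 groups; points are libraries and lines are group means. Naive and N+P C1 means are low in every panel, with both PD1+ groups of S+P females far above them, for example at 125 to 522 normalized counts for Atp5po.

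A first pregnancy without a graft was compared with Naive in PD1- cells (N+P C1) and in PD1+CD73+ cells (N+P C5), which share the 3 Naive libraries. Few regions could be judged: the filter on low information left 45 members in the first comparison and 31 in the second. In N+P C1, 3 of 45 passed the adjusted p (11.9% of all regions tested) and none was called (0.0205% of all regions). They were the start regions of Uqcrb (log2 fold difference 0.56, SE 0.17, adjusted p = 0.0481), Cox7c (log2 fold difference 0.41, SE 0.14, adjusted p = 0.0656) and Atp5mc1 (log2 fold difference -0.49, SE 0.18, adjusted p = 0.0866). In N+P C5, 1 of 31 passed (7.87% of all), again Atp5mc1 and again lower (log2 fold difference -0.54, SE 0.18, adjusted p = 0.0756), and none was called (0.0262% of all). The filter removed 96 members here, and the 4 of them with a difference over the fold threshold were all higher in N+P C5, namely both distal Cox7c regions (0.97 for the far and 1.76 for the nearer one), Mrpl39 (1.03) and Atp5po (1.08), 3 of them without overlap. They have no adjusted p, and without the filter the far Cox7c region was called. Of the 82 removed in N+P C1, 1 exceeded the threshold, the Cox4i2 region in Bcl2l1, which was lower (-0.93). Of all 127 members, DESeq2 gave 22 in N+P C1 and 23 in N+P C5 an unadjusted p under 0.05, while edgeR found none past the adjusted p in either. None of these 4 results passed without Naive replicate 1 or 2, in part because the filter then removed the region. Leaving out any 1 library of the pregnant group compared also ended the Uqcrb result and both Atp5mc1 results, and leaving out N+P C1 replicate 2 or 3 that of Cox7c, whereas 27 members (N+P C1) and 31 (N+P C5) passed without Naive replicate 3.

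Pregnancy after sensitization was compared with Sensitized cells in 3 subsets, which share the 4 Sensitized libraries. In PD1- cells (S+P C4) few members moved. In all, 13 of 127 passed the adjusted p, against 6.54% of all regions, and 6 start regions rose while 1 fell, against 3.11% and 1.49% of all start regions. None of the 99 was called (0.039% of all start regions), with 18 at an unadjusted p under 0.05 and none called by edgeR. Named examples were the start regions of Mrpl54 (log2 fold difference 0.30, SE 0.09, adjusted p = 0.0434) and Mrps15, another protein of the small ribosomal subunit (log2 fold difference 0.30, SE 0.11, adjusted p = 0.0829). The Mrps15 region (chr4:125940565-125941242) held 376, 373, 365 and 330 in Sensitized and 483, 414, 501 and 398 in S+P C4. Without Sensitized replicate 2, neither passed (adjusted p 0.167 and 0.161), and Sensitized replicate 4, S+P C4 replicate 3 and, for Mrps15, Sensitized replicate 3 and S+P C4 replicate 1 had the same effect, as had S+P C4 replicate 4 for Mrpl54. Mrps15 also missed the adjusted p in edgeR (0.119) and with GC offsets (0.157). Leaving out Sensitized replicates 3 and 4 together left 5 members past the adjusted p, against 6.43% of all regions, none of them a start region. Of these 1 was called higher and 3 lower, against 0.924% and 1.38% of all regions. Of single libraries, the count was 4 to 6 without Sensitized replicate 2, 3 or 4 or S+P C4 replicate 3 or 4, with 3 called in each case, and 47 without Sensitized replicate 1.

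Away from starts, 3 members were called higher and 2 lower in S+P C4, against 1.27% and 0.669% of all such regions. Atp5po encodes the subunit of ATP synthase that links its stalk to the catalytic head. The region named for it (chr16:91759909-91760546, 31652 bp away, between Itsn1 and Mrps6) held 4.13, 11.8 and 16.4 in Naive, 8.85, 3.36 and 15.1 in N+P C1, 26.2, 19.2 and 26.5 in N+P C5 and 15.6, 14.1, 13.8 and 33.6 in Sensitized. S+P C4 held 85.1, 50.6, 36.8 and 37.4, S+P C5 326, 522, 249 and 213 and S+P C7 284, 392, 171 and 125. No Naive, N+P or Sensitized library exceeded 33.6, and 4 of them had fewer than 10 raw counts, whereas every PD1+ S+P library held 125 or more, with S+P C4 between them. S+P C4 exceeded Sensitized (log2 fold difference 1.39, SE 0.44, adjusted p = 0.0493), but not past the adjusted p without Sensitized replicate 2 (0.188) or 3 (0.134) or S+P C4 replicate 1 (0.109), in edgeR (0.122), or with loess offsets by mean count (0.392). With these offsets the Mrpl38 intron was called higher (1.23, DESeq2 adjusted p = 0.0281). Of all regions away from starts, 1.24% were then called higher and 0.978% lower.

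Ndufs4 (log2 fold difference 1.5, SE 0.46, adjusted p = 0.0401) and Mrpl39 (log2 fold difference 1.63, SE 0.53, adjusted p = 0.0569) were the other higher calls, both with overlapping groups. Without Sensitized replicates 3 and 4 their differences were 0.85 (adjusted p = 0.301) and 1.08 (adjusted p = 0.346). Single libraries also ended both calls, namely Sensitized replicate 4 (adjusted p 0.171 and 0.208) and S+P C4 replicate 3 (0.164 and 0.223), for Ndufs4 also S+P C4 replicate 4 (0.194) and for Mrpl39 also Sensitized replicate 3 (0.157), as did edgeR for Mrpl39 (0.122). The lower calls were the nearer Cox7c region (log2 fold difference -1.72, SE 0.43, adjusted p = 0.00638), with Sensitized replicate 3 inside the range of S+P C4, and a Ndufaf6 region between Plekhf2 and Trp53inp1 (log2 fold difference -0.93, SE 0.22, adjusted p = 0.0045). This Ndufaf6 region (chr4:11084676-11085162) held 57.9, 85.6 and 83.3 in Naive, 152, 194, 148 and 159 in Sensitized, 126, 71.4, 84.9 and 74.8 in S+P C4 libraries, 278, 253, 281 and 207 in S+P C5 and 231, 153, 177 and 109 in S+P C7. Its difference was -0.84 without Sensitized replicate 2 or S+P C4 replicate 2 and -0.85 without S+P C4 replicate 4, short of the fold threshold, as it was in edgeR (-0.896) and with GC offsets (-0.832). When only the Sensitized and S+P C4 libraries were fitted, this Ndufaf6 region alone passed among the members.

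In PD1+CD73+ cells (S+P C5 against Sensitized), 41 of 127 members passed the adjusted p, against 32.9% of all regions. Start regions moved both ways by little: 15 rose and 11 fell, against 14.3% and 12.2% of all start regions, and none was called, against 0.663% (30 at an unadjusted p under 0.05, none called by edgeR). By class, complex V had 4 of 13 start regions higher and 1 lower, the large ribosomal subunit 5 of 24 higher and 1 lower, complex I 2 of 25 higher and 4 lower, and complex IV 0 of 7 higher and 1 lower. The small ribosomal subunit had 1 of 18 higher and 3 lower, the complex I assembly factors 2 of 6 higher and none lower, and complex III 1 of 4 higher and 1 lower. The median log2 fold difference was -0.005 over member start regions and 0.02 over all start regions. Of the regions away from starts, 5 were called higher and none lower, against 6.81% and 7.96% of all such regions. Without Sensitized replicates 3 and 4, 11 members passed, against 11.2% of all regions, and 1 start region was higher and none lower, against 3.14% and 2.13% of all start regions. Then 5 members were called higher and none lower, against 2.16% and 1.09% of all regions. Without Sensitized replicate 1 there were 71 (8 called), and without Sensitized replicate 2, 3 or 4 or S+P C5 replicate 2 there were 17 to 20.

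Atp5po led the calls in S+P C5 (log2 fold difference 4.08, SE 0.42, adjusted p = 5.24e-19), followed by Mrpl39 (log2 fold difference 3.58, SE 0.52, adjusted p = 1.22e-09) and the far Cox7c region (log2 fold difference 1.2, SE 0.20, adjusted p = 2.61e-07). Mrpl39 encodes a large-subunit protein, and the region named for it lay 258998 bp from its start between Ncam2 and Jam2. It held 13.8, 5.9 and 9.46 in Naive, 11.1, 0 and 11.3 in N+P C1, 26.2, 2.74 and 28.9 in N+P C5 and 32.3, 49.4, 13.8 and 16.8 in Sensitized. The values were 116, 77.9, 117 and 39.3 in S+P C4 libraries, 333, 557, 171 and 280 in S+P C5 and 315, 371, 250 and 160 in S+P C7. No library of the first 4 groups exceeded 49.4, and no S+P C5 or S+P C7 library was below 160, while 4 libraries had fewer than 10 raw counts. The nearer Cox7c region (log2 fold difference 1.94, SE 0.39, adjusted p = 2.06e-05) and the Ndufs4 intron (log2 fold difference 1.80, SE 0.46, adjusted p = 0.00144) were also called. With loess offsets by mean count, the nearer Cox7c region was at -0.021 (adjusted p = 0.966), and Atp5po (1.69) and Mrpl39 (1.701) stayed called at far smaller differences. The Mrps31 region was then called lower (-0.97), and 3.14% of all regions away from starts were called higher and 10.4% lower. With Sensitized replicates 3 and 4 left out, the Ndufs4 difference was 1.14 (adjusted p = 0.0754).

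Lower in S+P C5 than in Sensitized, without reaching the fold threshold, were a region named for Cox4i2 between Id1 and Bcl2l1 (log2 fold difference -0.77, SE 0.17, adjusted p = 0.000228), a region named for Mrps31 (log2 fold difference -0.84, SE 0.20, adjusted p = 0.000593) and the exon region in Padi2 named for Sdhb (log2 fold difference -0.40, SE 0.12, adjusted p = 0.00591). The Cox4i2 region (chr2:152617267-152618098) held 434, 375, 393 and 355 in Sensitized and 254, 225, 231 and 202 in S+P C5. The Mrps31 region (chr8:22895756-22896156, between Slc25a15 and Smim19) held 365, 309 and 294 in Naive, 217, 231, 276 and 274 in Sensitized, 191, 122, 126 and 111 in S+P C5 and 118, 100, 116 and 156 in S+P C7. In both cases the S+P C5 values lay below all Sensitized values.

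PD1+CD73- cells (S+P C7 against Sensitized) had the most members past the adjusted p among the 3 S+P subsets compared with Sensitized. In all, 58 of 127 members passed the adjusted p, against 52.9% of all regions. Start regions rose in 24 and fell in 19 of 99, against 26.5% and 21.1% of all start regions, and none was called, against 2.12% (43 at an unadjusted p under 0.05, none called by edgeR). Complex V had 5 of 13 higher and 1 lower, complex I 5 of 25 higher and 7 lower, complex IV 2 of 7 higher and none lower, the large ribosomal subunit 4 of 24 higher and 5 lower, and the small subunit 3 of 18 higher and 3 lower. Named examples were Mrpl9, higher (log2 fold difference 0.53, SE 0.08, adjusted p = 5.11e-10), Mrps9, lower (log2 fold difference -0.40, SE 0.09, adjusted p = 3.74e-05), and Mrps28, lower (log2 fold difference -0.30, SE 0.07, adjusted p = 7.78e-05). Sdhb was the only start region of complex II and was among those higher (log2 fold difference 0.32), and Cycs was among those lower (-0.19). The Mrps9 start region (chr1:42889882-42891087) held 740, 869, 928 and 867 in Sensitized and 686, 507, 711 and 658 in S+P C7.

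Of the regions away from starts, 6 were called higher in S+P C7 and 1 lower, against 8.23% and 16.5% of all such regions. These were Atp5po (log2 fold difference 3.64, SE 0.42, adjusted p = 2.07e-15), Mrpl39 (log2 fold difference 3.29, SE 0.52, adjusted p = 1.21e-08), the Ndufs4 intron (log2 fold difference 2.28, SE 0.46, adjusted p = 7.84e-06), the Mrpl38 intron (log2 fold difference 1.63, SE 0.46, adjusted p = 0.00205), Mrpl33 (log2 fold difference 1.07, SE 0.24, adjusted p = 6.76e-05) and an intron region of Gatad2a named for Ndufa13 (log2 fold difference 0.93, SE 0.14, adjusted p = 3.3e-09). The lower one was Mrps31 (log2 fold difference -1.01, SE 0.21, adjusted p = 1.13e-05). The Mrpl33 region (chr5:31733700-31734624, 20117 bp away, between Slc4a1ap and Rbks) held 258, 206 and 140 in Naive, 114, 136 and 132 in N+P C1, 129, 175 and 173 in N+P C5 and 613, 414, 242 and 280 in Sensitized, and 337, 454, 635 and 522 in S+P C4 libraries, 663, 742, 657 and 496 in S+P C5 and 884, 878, 774 and 713 in S+P C7. Its S+P C7 libraries lay above every Naive, N+P, Sensitized and S+P C4 library. Without Sensitized replicates 3 and 4 the differences of Mrpl33 (0.66), Ndufa13 (0.78) and Mrps31 (-0.85) fell short of the fold threshold, 4 members were called, all higher, against 2.03% of all regions called higher and 4.93% lower. Then 30 members passed the adjusted p, against 26.1% of all regions, with 11 start regions higher and 6 lower, against 11.1% and 8.02% of all start regions. Without Sensitized replicate 1, 11 were called, and with loess offsets by mean count the Mrpl38 difference was 0.363 (adjusted p = 0.422), with Atp5po at 1.259 and Mrpl39 at 1.444. The nearer Cox7c region was then called lower (-1.44), and 3.59% of all regions away from starts were called higher and 18.2% lower. Mrps31 also fell short of the fold threshold with GC offsets (-0.806), and Ndufa13 with size factors from other promoter regions (0.889). Mrpl33 also fell to 0.90 without Sensitized replicate 3, and Ndufa13 to between 0.84 and 0.88 without Sensitized replicate 2 or 4 or S+P C7 replicate 4.

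**Figure D4:**
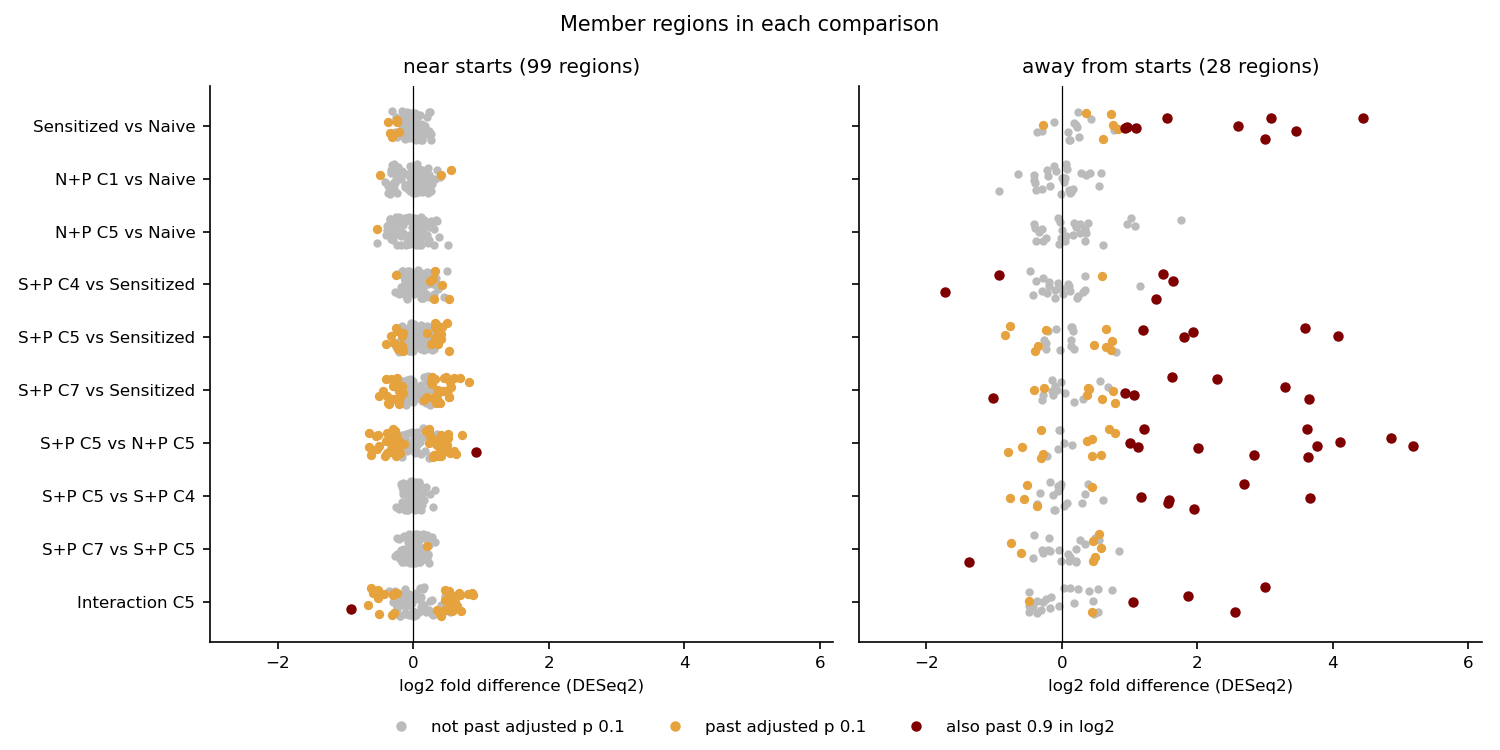
Log2 fold differences (DESeq2) of 99 start regions and 28 regions away from starts in the 10 comparisons; grey points did not pass the adjusted p of 0.1, orange points passed it and dark red points also exceeded 0.9. Start regions stay between -0.92 and 0.92, and those away from starts reach 5.18.

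Cells of the same sorted phenotype after pregnancy, S+P C5 and N+P C5, differ in the graft that came first, and this comparison held the most differences of all 10. In all, 85 of 127 members passed the adjusted p, against 63.8% of all regions. Of the start regions 32 rose and 31 fell, against 27.5% and 30.9% of all start regions, and 1 was called, against 3.36%. The call was Atp5mj (log2 fold difference 0.92, SE 0.24, adjusted p = 0.000599), whose N+P C5 values of 170, 152 and 99.8 lay below all S+P C5 values. Among those lower, Ndufb11 (log2 fold difference -0.53, SE 0.08, adjusted p = 5.01e-11), the Ndufaf6 start (log2 fold difference -0.62, SE 0.14, adjusted p = 7.31e-05) and a start region named for Mrpl39 at 1435 bp from its gene start (chr16:84531643-84533073) (log2 fold difference -0.65, SE 0.16, adjusted p = 0.000177) had the smallest adjusted p without overlap. The Mrpl39 start region held 1070, 1160 and 1170 in N+P C5 and 750, 621, 722 and 791 in S+P C5.

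The classes differed in balance. Complex IV had 5 of 7 start regions higher and 1 lower, and complex V 7 of 13 higher and 3 lower, whereas complex I had 6 of 25 higher and 8 lower, its assembly factors 2 of 6 higher and 3 lower, complex III 1 of 4 higher and 3 lower, the large ribosomal subunit 8 of 24 higher and 7 lower, and the small subunit 2 of 18 higher and 5 lower. The exception in complex IV was Cox7c itself, lower by 0.52 on the log2 scale, and Sdhb was higher by 0.47 while Cycs was lower by 0.21. Median log2 fold differences were 0.45 for complex IV, 0.19 for complex V, -0.09 for complex I and 0.01 over all member start regions. The median over all start regions was -0.004 and that over the 65 start regions of cytosolic ribosomal proteins 0.14. No test compared the classes.

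**Figure D5:**
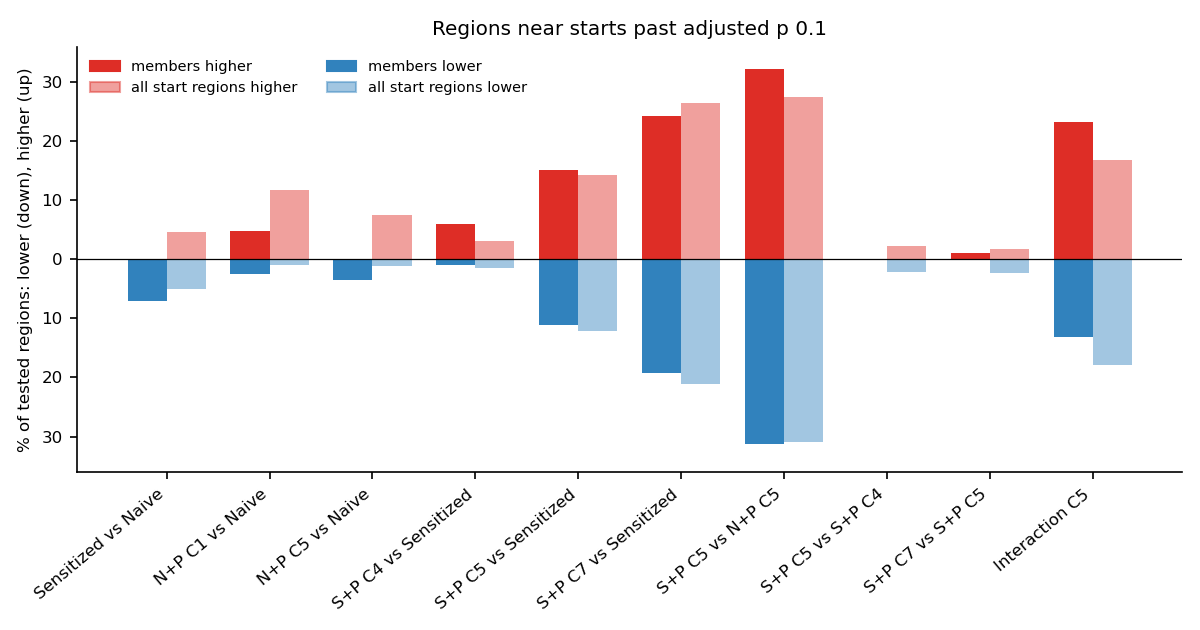
Percent of tested start regions that were higher (red, upward) or lower (blue, downward) at an adjusted p under 0.1 in each comparison, for members (dark) and all start regions (light). The bars are longest in S+P C5 against N+P C5, where 27.5% of all start regions were higher and 30.9% lower.

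Away from starts, 11 of 28 members were called higher after the graft and none lower, against 21.6% and 14.0% of all such regions. Groups did not overlap at any of the 11 or at Atp5mj. The calls rest on these same values, and the share of all called regions without overlap was not counted. Log2 fold differences over 3 were those of Mrpl38 (log2 fold difference 5.18, SE 0.62, adjusted p = 5.6e-15), Ndufs4 (log2 fold difference 4.85, SE 0.52, adjusted p = 4.12e-18), Mrpl39 (log2 fold difference 4.10, SE 0.59, adjusted p = 9.09e-11), Atp5po (log2 fold difference 3.77, SE 0.47, adjusted p = 9.01e-14), the nearer Cox7c region (log2 fold difference 3.64, SE 0.45, adjusted p = 6.29e-14) and the Cox4i2 region in Bcl2l1 (log2 fold difference 3.62, SE 0.55, adjusted p = 7.73e-10). This Cox4i2 region, named for an isoform of complex IV subunit 4, held 15.1, 38.4 and 16.8 in N+P C5 and 201, 459, 320 and 162 in S+P C5. The far Cox7c region (log2 fold difference 2.83, SE 0.24, adjusted p = 9.82e-30) and Mrpl33 (log2 fold difference 2.01, SE 0.27, adjusted p = 1.77e-12) came next. The remaining calls were the smaller Gatad2a intron region named for Ndufa13 (log2 fold difference 1.21, SE 0.20, adjusted p = 3.68e-08), a second region named for Ndufaf6 (log2 fold difference 1.01, SE 0.19, adjusted p = 1.29e-06) and the Ndufaf6 region at chr4:11084676-11085162 (log2 fold difference 1.13). With loess offsets by mean count, 5 of the 12 member calls remained, 1 other member (Mrps31) was called lower (-1.12), and 13.8% of all regions away from starts were called higher and 17.1% lower. Of the 7 lost, 4 changed sign, namely the nearer Cox7c region (-0.839, adjusted p = 0.0361), Atp5po (-0.479, adjusted p = 0.477), Mrpl39 (-0.07, adjusted p = 0.91) and the Ndufa13 region (-0.146, adjusted p = 0.486), and the others were both Ndufaf6 regions (0.791 for the second one) and the Atp5mj start region. Mrpl38 (1.705) and the Cox4i2 region (1.57) stayed called at far smaller differences.

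Within the S+P females, PD1+CD73+ cells were first compared with PD1- cells (S+P C5 against S+P C4). With no replicate block, no start region of a member passed the adjusted p in DESeq2 or edgeR, and 3 had an unadjusted p under 0.05, while 2.3% of all start regions were higher and 2.18% lower. None was called, against 0.468%. All 11 members that passed (13.3% of all regions did) lay away from starts, where 6 were called higher, and none lower, against 6.88% and 4.37% of all such regions. They were both distal Cox7c regions (nearer: log2 fold difference 3.66, SE 0.42, adjusted p = 2.21e-14, far: log2 fold difference 1.58, SE 0.21, adjusted p = 2.43e-11), both distal Ndufaf6 regions (log2 fold difference 1.57, SE 0.22, adjusted p = 6.75e-10 and log2 fold difference 1.16, SE 0.18, adjusted p = 1.61e-08), Atp5po (log2 fold difference 2.69, SE 0.42, adjusted p = 3.06e-08) and Mrpl39 (log2 fold difference 1.95, SE 0.52, adjusted p = 0.00392). The second Ndufaf6 region (chr4:11088644-11089358) held 259, 201, 141 and 151 in S+P C4 libraries, 433, 404, 417 and 379 in S+P C5 and 307, 255, 232 and 179 in S+P C7, and 138, 149 and 191 in Naive. Its S+P C5 libraries lay above every library of the other 6 groups. With loess offsets by mean count, Atp5po (0.90, adjusted p = 0.306) and Mrpl39 (0.314, adjusted p = 0.772) no longer passed, and the nearer Cox7c region was at 1.891. The Mrpl38 intron was then called lower (-1.77), and 4.07% of all regions away from starts were called higher and 7.36% lower. Lower without reaching the fold threshold were the Sdhb region in the Padi2 exon (log2 fold difference -0.52, SE 0.12, adjusted p = 0.000475) and the Cox4i2 region between Id1 and Bcl2l1 (log2 fold difference -0.77, SE 0.18, adjusted p = 0.00049). With the replicate number as a block, 11 members passed (17.0% of all regions), or 14 (23.2%) with all 3 S+P subsets in the fit.

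CD73- and CD73+ cells among the PD1+ cells were compared next (S+P C7 against S+P C5). In all, 9 of 127 members passed the adjusted p, against 8.93% of all regions. Of the start regions 1 rose and none fell (1.7% and 2.35% of all start regions), and none was called (0.273%), with 10 at an unadjusted p under 0.05 and none past the adjusted p in edgeR. Subsets with the same replicate number deviated together here, and with the replicate number as a block 25 members passed, 17 of them higher and 8 lower, against 26.3% of all regions (11.7% higher and 14.6% lower) in the same fit. With no block, leaving out S+P C5 replicate 3 gave 4 members past the adjusted p, and leaving out S+P C7 replicate 1 gave 14. Away from starts 1 was called lower, against 4.58% of all, namely the nearer Cox7c region (log2 fold difference -1.37, SE 0.39, adjusted p = 0.0118). Lower too was the second Ndufaf6 region (log2 fold difference -0.75, SE 0.17, adjusted p = 0.00118).

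Higher in S+P C7 were 2 of the Padi2 regions named for Sdhb. The intron region (chr4:140671547-140673313) held 800, 819 and 820 in Naive, 1120, 1040, 859 and 840 in Sensitized, 1050, 1170, 965 and 1040 in S+P C5 and 1370, 1470, 1550 and 1440 in S+P C7 (log2 fold difference 0.47, SE 0.12, adjusted p = 0.00587). The exon region (chr4:140679326-140680234) held 473, 502 and 469 in Naive, 374, 367, 416 and 428 in S+P C5 and 581, 540, 593 and 648 in S+P C7 (log2 fold difference 0.58, SE 0.12, adjusted p = 0.000126). Also higher was the larger Gatad2a intron region named for Ndufa13 (chr8:70371201-70372159), with 382, 364, 316 and 410 in S+P C5 and 515, 475, 457 and 572 in S+P C7 (log2 fold difference 0.46, SE 0.14, adjusted p = 0.0274). That result missed the adjusted p without S+P C5 replicate 3 (0.131) or S+P C7 replicate 4 (0.132).

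Whether pregnancy went with a different change in PD1+CD73+ cells after a graft than without one was tested as an interaction, the difference S+P C5 minus Sensitized less the difference N+P C5 minus Naive. In all, 42 of 127 members passed the adjusted p, against 31.2% of all regions. Single libraries moved this count widely: it was 9 without Naive replicate 2, 18 without Naive replicate 1, 21 without Sensitized replicate 4, 23 without N+P C5 replicate 3 and 65 without Sensitized replicate 1. Leaving out S+P C5 replicate 2 gave 27. Of the start regions 23 had a positive and 13 a negative interaction, against 16.9% and 17.9% of all start regions, and 1 was called, against 1.96%. By class, complex V had 5 of 13 positive and 1 negative, the large ribosomal subunit 7 of 24 and 3, complex I 4 of 25 and 1, the small ribosomal subunit 2 of 18 and 3, and complex IV 1 of 7 and 1. The remaining positive and negative start regions belonged to the classes not listed here. The called start region was Uqcrb (log2 fold difference -0.92, SE 0.23, adjusted p = 0.00353), whose mean was higher in N+P C5 than in Naive and lower in S+P C5 than in Sensitized, with overlapping groups in the second pair. It fell short of the fold threshold without any of 8 single libraries, at -0.82 to -0.90, and with total counts (-0.868), GC offsets (-0.747) or loess offsets by mean count (-0.87). Positive interactions with separate S+P C5 and Sensitized groups were those of Mrpl54 (log2 fold difference 0.60, SE 0.14, adjusted p = 0.00159) and Mrpl9 (log2 fold difference 0.39, SE 0.12, adjusted p = 0.0186).

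Away from starts 4 members were called with a positive interaction, against 5.85% of all such regions: Atp5po (log2 fold difference 2.99, SE 0.70, adjusted p = 0.00183), Mrpl39 (log2 fold difference 2.56, SE 0.86, adjusted p = 0.0256), Mrpl33 (log2 fold difference 1.05, SE 0.37, adjusted p = 0.0338) and Ndufs4 (log2 fold difference 1.86, SE 0.74, adjusted p = 0.0558). Without Sensitized replicates 3 and 4, 4 members passed the adjusted p (6.5% of all regions) and 1 was called. Then Mrpl39 (2.01, adjusted p = 0.155), Mrpl33 (0.64, 0.234), Ndufs4 (1.19, 0.253) and Mrpl9 (0.36, 0.131) no longer passed, and Uqcrb was at -0.73. Mrpl33 was also lost without Naive replicate 1 (0.84, adjusted p = 0.139) and fell short of the fold threshold without Sensitized replicate 3 (0.88), and Ndufs4 was lost without Naive replicate 1 (0.156) or 2 (0.133), N+P C5 replicate 2 (0.147), Sensitized replicate 4 (0.124) or S+P C5 replicate 2 (0.131), and in edgeR (0.104). The count of called members was 3 without Naive replicate 1 or 2, Sensitized replicate 3 or 4 or S+P C5 replicate 2, and 8 without Naive replicate 3 or Sensitized replicate 1. With loess offsets by mean count, Atp5po (1.15, adjusted p = 0.295) and Mrpl39 (1.19, adjusted p = 0.196) were lost, and 2.78% of all regions away from starts were called with a positive and 9.9% with a negative interaction.

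Genes around the pathway were counted in the same way from fixed lists. In S+P C5 against N+P C5, where 31.6% of all regions were higher, 32.2% lower, 10.3% called higher and 6.97% called lower, 4 of 16 regions of regulators of mitochondrial biogenesis (such as Nrf1, the GABP subunits and Tfam) were higher and 5 lower, 5 of 26 regions of assembly factors were higher and 6 lower, 2 of 10 of mitochondrial translation factors were higher and 3 lower, and 4 of 14 of citrate cycle enzymes were higher and 4 lower. Glycolysis genes had 13 of 27 regions higher and 7 lower, with 3 called higher and none lower. Of the other lists, the assembly factors had 2 called higher, mitochondrial translation and the citrate cycle 1 each called lower, and the regulators none. The median log2 fold difference was 0.18 for glycolysis, -0.11 for the regulators, -0.11 for the assembly factors, -0.03 for mitochondrial translation and 0.001 for the citrate cycle. In S+P C7 against Sensitized (25.3% of all regions higher and 27.6% lower), 10 of 27 glycolysis regions were higher and 2 lower, 6 of 16 regulator regions higher and 4 lower, 5 of 14 citrate cycle regions higher and 2 lower, 7 of 26 assembly factor regions higher and 9 lower, and 3 of 10 mitochondrial translation regions higher and 3 lower. Here 1 citrate cycle region was called lower and 1 assembly factor region higher, against 8.03% and 3.84% of all regions. When Sensitized replicates 3 and 4 were left out, and 11.4% of all regions were higher and 14.7% lower, the counts were 8 and 1 for glycolysis, 3 and 3 for the regulators, 3 and 1 for the citrate cycle, 7 and 1 for the assembly factors and 4 and 1 for mitochondrial translation. In Sensitized against Naive (13.3% higher and 7.25% lower), glycolysis had 5 higher and 1 lower, and the other 4 lists together had 2 higher and 3 lower. Without those replicates (17.1% higher and 16.3% lower) glycolysis had 6 higher and 2 lower, and the other 4 together 3 and 7.

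In the authors' 7 group lists, which pool the libraries of a group, 40 of 99 member start regions (40.4%) overlapped with an interval in every list, against 34.8% of other start regions. Of the 28 regions away from starts, 3 (10.7%) did so, against 9.62% of the others. The S+P C4 list limited both counts, as it overlapped with 41 of 99 start regions and 3 of 28 others. Each other list overlapped with 71 to 97 start regions and 7 to 24 others. With only the listed intervals at a q under 0.05, 7 to 16 members overlapped per list in place of 44 to 121. Those found in 1 list only were 10 of 99 start regions (11.0% of other start regions), each of them in S+P C5, and 10 of 28 away from starts (24.3% of the others), 7 of them in S+P C5. That list also held 75.4% of the other start regions and 50.9% of the other regions away from starts that were in 1 list only. The S+P C7 group most often had the highest mean, at 29 of 99 start regions (31.1% of other start regions) and 12 of 28 others (25.9% of other such regions), followed by N+P C1 at 26 start regions and S+P C5 at 7 others. It also most often had the lowest mean of the start regions (27 of 99, or 27.3%, against 26.7% of other start regions), while away from starts the lowest were Naive (12 of 28, or 42.9%, against 10.7%) and N+P C1 (8, or 28.6%, against 29.4%).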

How the data were processed

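ATAC-seq libraries of tetramer-sorted CD8+ T cells were analysed from 1 table of raw counts, in which the authors had counted reads of 25 libraries in 13527 regions, and from 7 lists of regions, 1 per group. Per the submitters' processing notes, the authors used cutadapt 3.4, Bowtie2 2.2.9, Picard 2.21.8, Genrich 0.6.1, bedtools 2.27.1, deepTools, Bamtools and ChIP-R. The deposited lists, which pool the libraries of a group, hold a score, a signal value, a p-value and a q-value per region as the authors' software wrote them, and only their positions and the q-value were used here. A stretch of the genome outside the merged table has no value here.

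DESeq2 1.42.0 (Wald test, the study's tool) was fitted to all 25 libraries with group as the only term. Fold differences were not shrunken, and p-values were adjusted by Benjamini-Hochberg over all regions left by the independent filter. A region passed at an adjusted p under 0.1 and was called when the absolute log2 fold difference also exceeded 0.9. Normalized counts are counts divided by DESeq2 size factors. Total counts ranged from 2430890 to 25419715, and values rest on counting error as well as on the spread between libraries. edgeR 4.0.16 (quasi-likelihood) was the alternative test, and the others changed the size factors, the loess offsets, the filter, the threshold, the samples fitted, the replicate block or left out libraries. The statistics scripts were tested on simulated data.

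Regions were placed with GENCODE vM39 on GRCm39, with start regions having their midpoint within 1000 bp of a protein-coding transcript start. Named were, per comparison, up to 3 higher and 3 lower members with the smallest adjusted p under 0.1 and no overlap between the groups, called members (up to 10), the region with the most counts in each class, and all regions of the Sdh genes and Cycs. Members and lists were chosen with earlier results of these data known. Outside the rule, Atp5mj, the shares of counts, and the AP-1, RUNX, NFAT and TCF/LEF strings were chosen after values were seen. Same-numbered S+P subsets deviated together, with correlations of deviations of 0.103 to 0.572 between C5 and C4 and 0.522 to 0.771 between C7 and C5, and were treated as paired in an alternative fit, whereas in the other comparisons the correlations ranged from -0.759 to 0.363.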

Additional observations from a re-analysis of the deposited data

Results flagged for a closer look

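In 10 of 124 groups of 4 libraries at named regions, 1 library stood apart from the other 3 by Dixon's criterion, which chance meets in about 1 of 20 groups. At start regions these were Sensitized replicate 1 at Uqcrb (504 normalized counts, the others 822 to 858), at Cox7c (889, the others 1270 to 1340) and at Ndufb11 (576, the others 672 to 678), and Sensitized replicate 2 at Ndufa11 (701, the others 828 to 854). S+P C5 replicate 2 stood apart at Uqcrb (484, the others 591 to 610) and S+P C7 replicate 1 at Mrpl9 (596, the others 679 to 691). Away from starts, Sensitized replicate 4 stood apart at Atp5po (33.6, the others 13.8 to 15.6), S+P C4 replicate 1 at the intron region of Padi2 named for Sdhb (823, the others 1190 to 1250), and S+P C4 replicate 2 (123, the others 164 to 171) and S+P C5 replicate 2 (230, the others 186 to 193) at the smaller region named for Ndufa13.

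The difference between PD1+CD73+ cells and their controls differed between females with and without a graft at 7 named regions, by the interaction test with all libraries. The log2 interaction was positive at Mrpl54 (0.60), Mrpl9 (0.39), Atp5po (2.99), Mrpl39 (2.56), Mrpl33 (1.05) and Ndufs4 (1.86), and negative at Uqcrb (-0.92). Without Sensitized replicates 3 and 4, Mrpl39, Mrpl33, Ndufs4 and Mrpl9 no longer passed, and with loess offsets by mean count Atp5po and Mrpl39 did not. Mrpl33 and Ndufs4 were also lost without single libraries, and Uqcrb fell short of the fold threshold without any of 8 single libraries.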

How the results depend on the processing

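Of 1398 values of the 74 named results under alternatives, 1241 kept their direction and side of the threshold and 6 changed sign. The other 151 kept their direction but not their call: 103 had an adjusted p over the threshold, 34 fell short of the fold threshold alone and 14 had none because the independent filter removed the region. All 6 sign changes arose with loess offsets by mean count, which adjust each library by the mean count of its regions, and their cause was not tested: Mrpl39 in Sensitized against Naive (-1.263), the nearer Cox7c region in S+P C5 against Sensitized (-0.021), and, in S+P C5 against N+P C5, the nearer Cox7c region (-0.839), Atp5po (-0.479), Mrpl39 (-0.070) and the smaller Ndufa13 region (-0.146). With the same offsets 6 members were called in S+P C5 against N+P C5 (15.1% of all regions), 5 of them among the 12, and 2 of the 5 remained in the interaction (6.51% of all regions called). Few counts in some libraries at the nearer Cox7c, Atp5po and Mrpl39 regions limit their precision. The smaller Ndufa13 region held at least 46 raw counts in every library.

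Counts of members past the adjusted p moved as follows, and where no construction is named the cause was not tested. The share of all regions is not given beside them here, so they do not set the members apart from the whole table. In Sensitized against Naive the count of 22 was 14 when only the compared groups were fitted. In N+P C1 against Naive the count of 3 was 0 in edgeR, 0 with size factors from other promoter regions, 5 with GC offsets, 1 without the independent filter, 0 at an adjusted p of 0.05 and 8 with the compared groups only. In N+P C5 against Naive the count of 1 was 0 in edgeR, 4 with total counts, 7 with GC offsets, 0 at 0.05 and 8 with the compared groups only, and called members were 1 with total counts, other promoter regions, GC offsets or no filter and 2 with the compared groups only. In S+P C4 against Sensitized the 13 became 6 in edgeR, 7 at 0.05 and 1 with the compared groups only, and the 5 called became 2 and, with the compared groups only, 1. In S+P C5 against Sensitized the 41 became 22 at 0.05 and 19 with the compared groups only, and the interaction's 42 became 26 at 0.05. Without both Sensitized 3 and 4, an omission chosen from earlier results of these data, comparisons with Sensitized had 5 members past the adjusted p in S+P C4, 11 in the CD73+ and 30 in the CD73- PD1+ cells (4 called), and the interaction had 4 (1 called).

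With the replicate block, and with the share of all regions that passed in brackets, 10 members passed in Sensitized against Naive (17.3%), 7 in N+P C5 against Naive (8.31%, 1 member called against 0.355% of all regions), 3 in S+P C4 (2.01%, 1 member called against 0.347% of all regions) and 24 in S+P C5 against Sensitized (23.8%), and 25 in S+P C7 against S+P C5 (26.3%), or 23 (22.3%) with a block over all 3 subsets, added after seeing the data. It gave 3 in N+P C1 against Naive (7.51%), 44 in S+P C7 against Sensitized (41.9%), 57 in S+P C5 against N+P C5 (54.0%), 11 in S+P C5 against S+P C4 (17.0%), or 14 (23.2%) with the block over all 3 subsets, and 38 in the interaction (29.6%). Outside the S+P subsets the libraries share only a number.

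Leaving out 1 library gave 12 (Naive 1) to 33 (Naive 3) members past the adjusted p and 6 to 9 called in Sensitized against Naive, 0 to 27 and 0 to 0 in N+P C1, 0 to 31 and 0 to 2 in N+P C5 (both highest without Naive 3), 4 to 47 and 3 to 6 in S+P C4, 17 to 71 and 5 to 8 in S+P C5, and 42 to 85 and 6 to 11 in S+P C7 against Sensitized (fewest past without Sensitized 4, most without Sensitized 1). It gave 64 to 80 and 11 to 13 in S+P C5 against N+P C5, 9 to 12 and 6 to 6 in S+P C5 against S+P C4, 4 (S+P C5 replicate 3) to 14 (S+P C7 replicate 1) and 1 to 1 in S+P C7 against S+P C5, and 9 (Naive 2) to 65 (Sensitized 1) and 3 to 8 in the interaction. The share of all regions in these fits is not given, so the ranges do not set the members apart from the whole table.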
